A study of Mus musculus with 2 samples.

Results

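The cells described here are 141 phagocytes of MC38 tumours that stood out for the summed RNA of 4 genes: Mmp13, a collagenase; Atp6v0d2, a subunit of the proton pump that acidifies lysosomes; Fbxo32, a muscle-atrophy ubiquitin ligase that marks proteins for degradation; and Igf1, a secreted growth factor. They were taken from 28346 cell barcodes in 2 single-cell RNA libraries. A gate first kept 1407 phagocytes. A gated cell had at least 2000 unique molecular identifiers (UMIs, each standing for 1 captured RNA molecule), at most 15% of them mitochondrial, and at least 4 detected genes among Lyz2, Ctss, Cybb, Csf1r, Ms4a7, Mrc1, C1qa, Tyrobp and Fcer1g. It also had at most 2 UMIs summed over the tumour genes Hmga2, Sox9, Tafa1 and Hoxa9 and 0 UMIs of Cd3e and Cd3d. Members were the top 10% of gated cells, both libraries pooled, by UMIs of the 4 genes per 10000, and the other 1266 gated cells are the cells they are set against.

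The libraries came from subcutaneous tumours in C57BL/6 mice, grown from pools of MC38 cells, a mouse colon adenocarcinoma line, that had been transduced with a lentivirus. The SPP1 library is from a pool made to express SPP1, or osteopontin, a secreted glycoprotein that binds CD44 and integrins, and the Vector library is from a pool with the control vector. Both tumours were under treatment with an antibody that blocks the T cell checkpoint PD-1, injected at 10 mg/kg from day 7 on, with 2 injections a week over 2 weeks. The labels give the mice as WT, with no age. Each group is 1 library, so no comparison below has a replicate check, no test across animals was possible, and the 95% intervals below describe counting error alone.

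Macrophages remodel tissue by secreting proteases and by taking up matrix and dead cells into lysosomes, which the vacuolar proton pump (V-ATPase) keeps acid. MMP13 cuts fibrillar collagen, and together with the d2 subunit of the pump it is best known from bone, where osteoclasts, the bone-resorbing relatives of macrophages, use the d2 subunit, acid and proteases to resorb mineralised matrix. Macrophages loaded with lipid or cell debris are known for raised Gpnmb, Fabp5 and cathepsins, and those that take up red cells for Hmox1, which breaks down haem.

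The SPP1 library held 14029 barcodes and 59 members among 597 gated cells, and the Vector library held 14317 barcodes and 82 members among 810 gated cells. Both libraries had about the same depth, with medians of 10218 and 10277 UMIs per barcode. The members' median was 9322 UMIs in the SPP1 library, where other gated cells had 7510, and 7506.5 UMIs in the Vector library, where other gated cells had 7938.5. Members' median mitochondrial share was 1.83% in SPP1 and 1.44% in Vector, against 1.97% and 1.67% in the other gated cells of those libraries. The libraries shared 93 barcodes, of which none was a member in either library. Of the cells predicted to be doublets, 1 was a member, in the Vector library, and none was removed.

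Members made up 9.88% of gated cells in the SPP1 library (exact binomial interval 7.61 to 12.6%) and 10.1% in the Vector library (8.13 to 12.4%). The log2 ratio of these shares, SPP1 over Vector, was -0.03 (interval -0.49 to 0.42), so a difference in share was not detectable at this number of cells. Of all barcodes, members made up 0.421% in the SPP1 library and 0.573% in the Vector library. The members' score ran down to 10.2 per 10000, with a median of 15.5 in SPP1 members and 16.5 in Vector members. The score had no gap at its limit, since the 10 lowest members lay between 10.2 and 10.8 per 10000 and the 10 highest other cells between 9.52 and 10.2. Among the other gated cells, 60.4% in SPP1 and 60.6% in Vector had no UMI of any score gene.

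The 4 score genes chose the members, so their levels are given as a description only. Levels are UMIs per 1000000 UMIs of the set of cells (CPM). Mmp13 had 1509 CPM in members and 25.5 in other gated cells of the SPP1 library, and 806 and 40.0 CPM in the Vector library. Atp6v0d2 had 174 CPM in members and 11.97 in other gated cells of SPP1, and 332 and 19.7 in Vector. Both genes were all but restricted to gated cells among the sets counted: T cells, with at least 2 UMIs of Cd3e and Cd3d together and at most 2 gate genes, held 0 UMIs of either gene in 60 cells of SPP1 and in 83 cells of Vector, which at a floor of 3 cells allows a share of up to 5% and 3.61% of cells with a UMI, with exact binomial upper limits of 5.96% and 4.35%, at median depths of 3781 and 3706 UMIs. The tumour compartment, with at least 10 UMIs of the tumour genes, held 0.248 CPM of Mmp13 in SPP1 and 0.199 in Vector. Fbxo32 had 304 CPM in members and 45.8 in other gated cells of SPP1, and 366 and 42.3 in Vector. For Fbxo32 the level in other gated cells was close to that of the tumour compartment, 52.6 CPM in SPP1 and 38.2 CPM in Vector, and T cells held 29.7 and 14.3 CPM. Igf1 had 425 CPM in members and 60.5 in other gated cells of SPP1, and 434 and 48.8 in Vector, against at most 0.266 CPM in the tumour compartment.

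Where the start sites of these genes have a window in the RefSeq table (build GRCm38.p6, 250 bases before to 50 after the start), they were searched for TGANTCA, the letters of an AP-1 site, which reads the same on both strands, and for CACGTG, the letters bound by MiT/TFE factors, which are known as regulators of lysosomal genes. The 19 genes looked for were the score genes, Gpnmb, Hmox1 and others picked by hand, so no enrichment was tested, and 14 had a window. Atp6v0d2, Fbxo32, Hmox1, Fabp5 and Ctsb had none. TGANTCA lay in a window of 5 of the 14 genes, Mmp13, Igf1, Mmp12, Gpnmb and Hilpda. Of the 19 windows of these 14 genes, 6 held it (31.6%), against 7.81% of all 32851 windows, where a gene can have several windows. The 6 count the same Hilpda site in each of its overlapping windows. CACGTG lay in a window of 3 of the 14 genes, Ctsl, Plin2 and Bhlhe41, or in 3 of the 19 windows (15.8%), against 7.15% of all windows. Such a match is a description of letters and not a bound site. The 120 bases before the start are shown for Mmp13 (chr9:7272394-7272513), for the second listed start of its near neighbour Mmp12 (chr9:7347254-7347373) and for Igf1 (chr10:87860991-87861110), all on the plus strand, because these 2 proteases and this growth factor, of which Mmp13 and Igf1 are score genes, carry the letters at similar distances. The match, in capitals, is at -35 to -29 in Mmp13, at -44 to -38 in Mmp12 and at -37 to -31 in Igf1, counted from the start. Its middle base is C in Mmp13 and G in Mmp12 but A in Igf1, so the Igf1 match is not the AP-1 consensus.
Mmp13: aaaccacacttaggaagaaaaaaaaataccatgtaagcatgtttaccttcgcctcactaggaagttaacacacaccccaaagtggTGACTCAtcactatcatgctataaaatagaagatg
Mmp12: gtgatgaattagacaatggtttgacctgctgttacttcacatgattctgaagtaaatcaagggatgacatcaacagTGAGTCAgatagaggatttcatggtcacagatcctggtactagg
Igf1: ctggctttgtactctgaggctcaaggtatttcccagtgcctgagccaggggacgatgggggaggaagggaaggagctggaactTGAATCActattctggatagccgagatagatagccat

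The members were not one uniform set. Of the 141, 88 (62.4%) had a UMI of Mmp13, 79 (56.0%) of Igf1, 66 (46.8%) of Atp6v0d2 and 66 of Fbxo32. Mmp13 and Atp6v0d2 were both detected in 44 members (31.2%), and neither in 31 (22.0%), so the name of an Mmp13 and Atp6v0d2 macrophage holds for some of the members and not for others. Only 1 score gene was detected in 40 members, 2 in 53, 3 in 39 and all 4 in 9. The gene with the most UMIs was Mmp13 in 55 members, Igf1 in 35, Fbxo32 in 28 and Atp6v0d2 in 17, with a tie in 6. Atp6v0d2 led in 3 of 59 members in SPP1 (5.08%, interval 1.06 to 14.1%) and in 14 of 82 members in Vector (17.1%, 9.66 to 27.0%), while Mmp13 led in 44.1% (31.2 to 57.6%) and 35.4% (25.1 to 46.7%) of them. These intervals overlap for both genes.

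Whether the 4 genes go together was looked at in all 1407 gated cells after each was thinned to 2000 UMIs, so that depth is equal. Mmp13 and Atp6v0d2 were found in the same cell more often than their shares would give if unrelated: 8 cells against 2.39 in SPP1, and 14 against 5.26 in Vector. Atp6v0d2 and Igf1 shared 9 cells against 3.18 in SPP1 and 12 against 4.84 in Vector. Fbxo32 and Igf1 shared 7 cells against 7.26 in SPP1 and 14 against 8.40 in Vector, and Mmp13 and Igf1 shared 8 against 7.26 in SPP1 and 13 against 8.59 in Vector. Gpnmb, a membrane glycoprotein of lysosomes that was not in the score, also went with Atp6v0d2. They shared 6 cells against 1.63 in SPP1 and 14 against 2.60 in Vector. Of thinned cells with Atp6v0d2, 24.0% in SPP1 (interval 9.36 to 45.1%) and 28.6% in Vector (16.6 to 43.3%) had Gpnmb, against 5.77% and 3.81% of cells without Atp6v0d2.

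Each score gene was then read in cells chosen by the other 3, a choice that did not use it. Atp6v0d2, so left out, had 114 CPM in chosen cells and 19.1 in the rest in SPP1 (log2 ratio 2.58, interval 2.08 to 3.07), and 181 and 36.8 CPM in Vector (2.29, 1.963 to 2.62). Without the 3 highest chosen cells it still stood at 2.095 in SPP1 and 1.91 in Vector. Igf1 had 159 CPM in chosen cells and 94.0 in the rest in SPP1 (0.76, interval 0.40 to 1.11), and 199 and 75.2 CPM in Vector (1.41, 1.12 to 1.69), and without the 3 highest cells its SPP1 value was -0.22. Mmp13 had log2 ratios of 2.77 (2.58 to 2.96) in SPP1 and 1.48 (1.24 to 1.72) in Vector, which without the 3 highest chosen cells were 0.14 and 0.64; these cells held 85.1% of the chosen cells' Mmp13 in SPP1. Mmp13 was nonetheless detected in more of the chosen cells at equal depth, 23.3% and 24.7%, than of the rest, 8.01% and 9.19%. Fbxo32 was lower in chosen cells in SPP1, with 43.1 CPM against 77.8 (log2 ratio -0.85, interval -1.55 to -0.23), and higher in Vector, with 108 CPM against 71.3 (0.60, 0.23 to 0.95), and without the 3 highest chosen cells it stood at -2.61 in SPP1 and 0.0329 in Vector. Of the 4, Atp6v0d2 thus moved least when the highest cells were left out, and Fbxo32 ran opposite ways in the libraries.

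**Figure D1:**
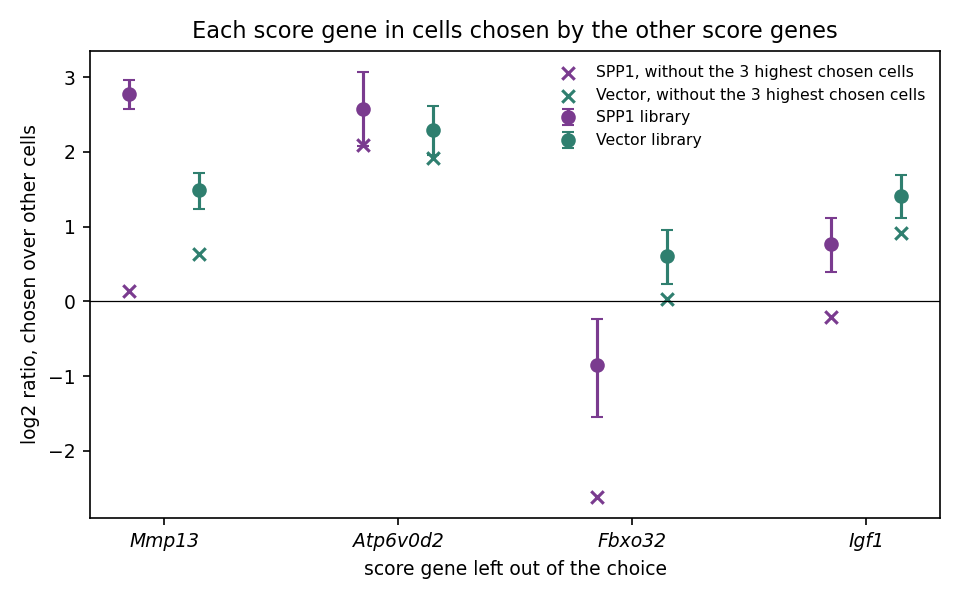
Log2 ratio of each score gene (y axis) in cells chosen by the other 3 score genes over all other gated cells, with 95% counting intervals, and crosses for the value without the 3 highest chosen cells. Atp6v0d2 lies at 2.58 in SPP1 and 2.29 in Vector with crosses at 2.095 and 1.91, while Fbxo32 lies at -0.85 in SPP1 and 0.60 in Vector.

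The markers proposed for these cells were chosen with earlier results of these data known, so their levels are given as a description. Of these markers, both that the rule did not use were higher in members. Gpnmb had 345 CPM in members and 19.6 in other gated cells of the SPP1 library (log2 ratio 4.14, interval 3.76 to 4.53), and 203 and 24.5 CPM in the Vector library (3.05, 2.70 to 3.40). Hmox1, haem oxygenase, had 297 and 136 CPM in SPP1 (1.13, 0.87 to 1.38) and 418 and 163 in Vector (1.36, 1.16 to 1.55). In cells thinned to 2000 UMIs, Gpnmb was detected in 22.0% of members and 4.83% of other gated cells in SPP1, and in 23.2% and 3.30% in Vector. T cells held no Gpnmb UMI. Tumour cells held 26.2 CPM in SPP1 and 30.03 in Vector, somewhat above the 19.6 and 24.5 CPM of the other gated cells. The members' Gpnmb thus lay above each set it was compared with.

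**Figure D2:**
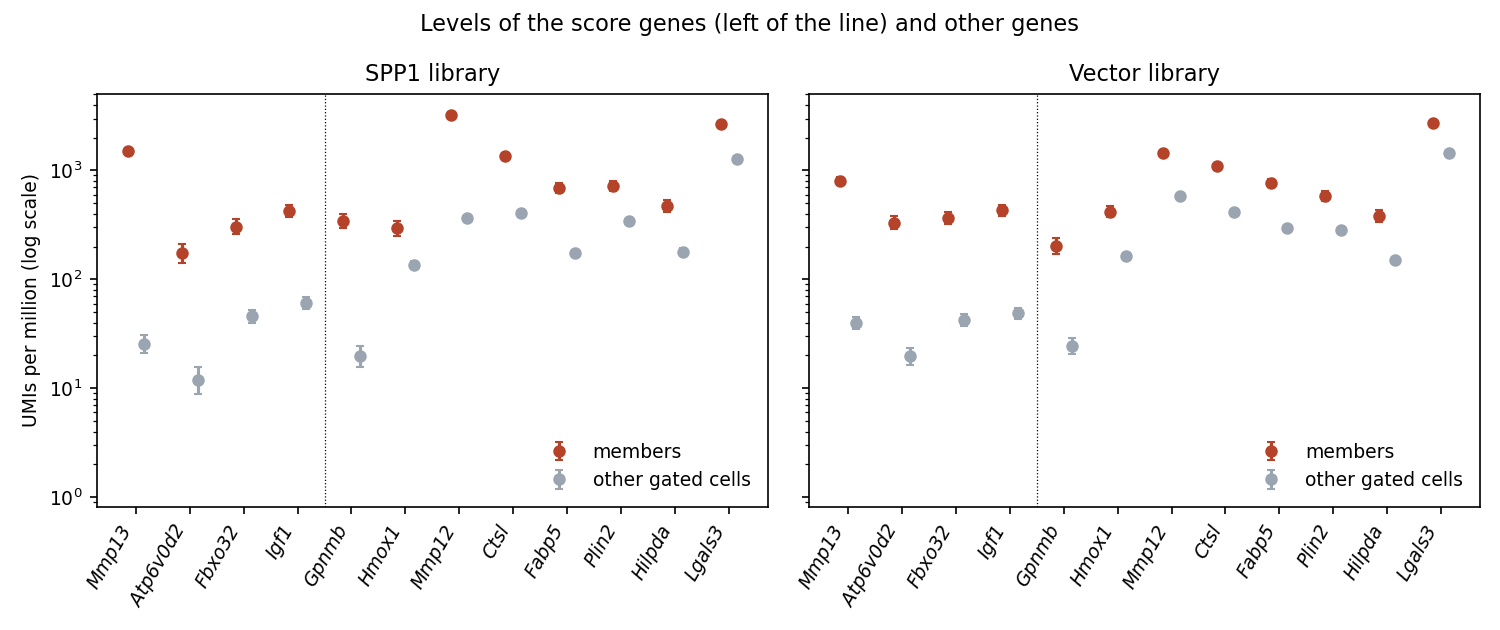
Level of 12 genes in members and in other gated cells of each library, in CPM on a log axis, with exact Poisson 95% intervals; the 4 genes left of the dotted line chose the members. Each of the 8 genes to the right lies higher in members in both libraries, from Gpnmb at 345 against 19.6 in SPP1 to Lgals3 at 2670.0 against 1281.

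Across genes, 6034 had at least 100 UMIs in gated cells of each library and were not used by the rule. Of these, 140 (2.32%) were at least 1.5-fold higher in members in both libraries and 319 (5.29%) at least 1.5-fold lower, and such genes are called higher or lower here. In the SPP1 library alone 410 (6.79%) were higher and 936 (15.5%) lower, and in the Vector library alone 347 (5.75%) were higher and 792 (13.1%) lower. The median log2 ratio of all measured genes was -0.12 in SPP1 and -0.08 in Vector. The counts were lower without the gated cells that held at least 3 UMIs of the 16 cell cycle genes, which were 54.2% of members and 57.1% of other gated cells in SPP1 and 42.7% and 56.2% in Vector. Then 59 genes were higher and 101 lower, of which 36 and 35 were among those above, and as fewer cells and measured genes were left, the part of the cell cycle in this fall was not tested.

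**Figure D3:**
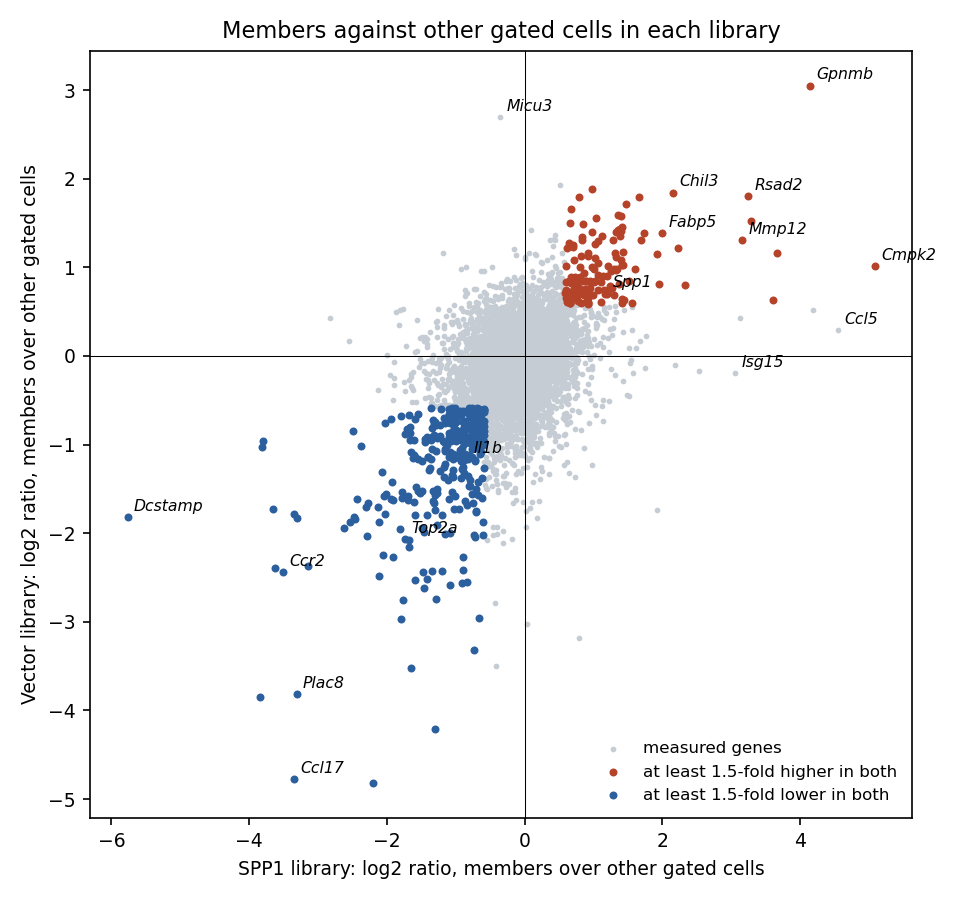
Log2 ratio of members over other gated cells for each measured gene in the SPP1 library (x axis) and in the Vector library (y axis), with the 140 genes higher and the 319 genes lower in both in colour. Gpnmb lies at the upper right, Plac8, Ccr2 and Ccl17 at the lower left, and Cmpk2, Ccl5 and Isg15 lie far to the right in the SPP1 library and between -0.19 and 1.01 in the Vector library.

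Of the measured genes at 50 CPM or more in the set where they were higher, in both libraries, whose interval lay beyond 1.5-fold in both libraries, 43 were higher, and the 15 with the largest smaller ratio were Gpnmb, Chil3, Rsad2, Ankrd33b, Ifit1, Bhlhe41, Spry2, Il18bp, Fabp5, Chst11, Ctsl, Hilpda, Garin1a, Rnf128 and Rassf8. Some of these were spread over many members. Ctsl, the lysosomal protease cathepsin L, had 1351 CPM in members and 406 in other gated cells of SPP1 (log2 ratio 1.74), and 1093 and 419 in Vector (1.38), and was detected in 94.9% of SPP1 members and 95.1% of Vector members. Fabp5, a fatty acid binding protein, had 696 and 174 CPM in SPP1 (2.00) and 772 and 296 in Vector (1.38), and was detected in 79.7% and 80.5% of members, against 46.7% and 49.5% of other gated cells. Hilpda, a lipid droplet protein induced by hypoxia, had 472 and 180.0 CPM in SPP1 (1.39) and 381 and 149 in Vector (1.35). Rnf128, a ubiquitin ligase, had 118 and 46.0 CPM in SPP1 (1.35) and 125 and 46.8 in Vector (1.42).

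Others came from a few cells. Chil3, a chitinase-like secreted protein, had 89.6 CPM in members and 20.03 in other gated cells of SPP1, and 125 and 34.8 in Vector, but the 3 highest members held 89.6% of its UMIs in SPP1 and 100% in Vector. Without the 3 highest cells of each set its log2 ratios were -0.45 and -1.77. Rsad2, an antiviral interferon-induced enzyme, had 75.7% and 77.7% of its UMIs in 3 members, and Ifit1, an interferon-induced RNA binding protein, 64.2% and 79.5%. With Mmp13 left out of the score, Ifit1 stood at -0.76 in Vector. Ctsl, Fabp5, Hilpda and Gpnmb kept log2 ratios of at least 1.18 in each library without the 3 highest cells of each set. Bhlhe41, a transcriptional repressor, had 93.3 and 33.6 CPM in SPP1 and 63.2 and 19.3 in Vector, and Il18bp, a secreted inhibitor of interleukin 18, had log2 ratios of 1.40 in SPP1 and 1.41 in Vector. Without the 3 highest cells, Bhlhe41 stood at 0.89 and 1.49, and Il18bp at 0.89 and 1.17, while among gated cells with 0 UMIs of the tumour genes Il18bp was at -0.79 in SPP1.

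Matrix proteases and their inhibitors came next to Mmp13 by role. Of 9 measured genes of this list besides Mmp13, 3 were higher, none was lower, and the median log2 ratio was 0.41 in SPP1 and 0.33 in Vector. Over all measured genes 2.32% were higher and 5.29% lower, the shares to set beside this and each later list count. Mmp12, macrophage elastase, had 3265 CPM in members and 365 in other gated cells of SPP1 (3.16, interval 3.06 to 3.26), and 1441 and 584 in Vector (1.30, 1.20 to 1.41). Mmp12 was the strongest of the 3 in both libraries and was detected in 64.4% of SPP1 members and 62.2% of Vector members. Of the 3, Mmp12 and Adam8 stayed 1.5-fold higher in both libraries without the 3 highest cells of each set. Adam8, a membrane metalloprotease, had 509 and 222 CPM in SPP1 (1.20) and 459 and 246 in Vector (0.90), and Timp2, an inhibitor of metalloproteases, had 438 and 270.5 in SPP1 (0.70) and 491 and 209 in Vector (1.23).

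Of 16 measured V-ATPase genes besides Atp6v0d2, none was higher or lower by the 1.5-fold rule in both libraries, with medians of 0.24 in SPP1 and 0.23 in Vector. At 2.32% higher and 5.29% lower over all measured genes, a list of this size would hold few calls either way. Atp6v1a, a catalytic subunit, had 868 and 609.5 CPM in members and other gated cells of SPP1 (0.51) and 1022 and 531 in Vector (0.94). Atp6v0c, of the proton ring, had 782 and 702 in SPP1 (0.16) and 744 and 606 in Vector (0.30). Among 12 measured genes of autophagy and the MiT/TFE factors none was called either way, again near those shares. The factor Mitf had log2 ratios of 0.25 and 0.50.

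Lysosomal contents and enzymes were higher for 8 of 27 measured genes and lower for none, with medians of 0.30 in SPP1 and 0.45 in Vector. Ctsb, cathepsin B, had 5357 CPM in members and 2829 in other gated cells of SPP1 (0.92), and 5333 and 2444 in Vector (1.13). Cd68, a macrophage lysosome glycoprotein, had 748 and 429 in SPP1 (0.80) and 643 and 347 in Vector (0.89). Psap, the precursor of the saposins that help break down sphingolipids, had log2 ratios of 0.92 and 0.60, and Lipa, the acid lipase, 0.85 and 0.72. The other genes called were Ctsl, Cd63, Npc2 and Gaa, and Gaa, the acid glucosidase, rested on at most 31.7 CPM with intervals that reached below 0. Leaving out the 3 highest cells of each set kept Ctsl, Ctsb, Cd63, Cd68 and Lipa, 5 of the 8, 1.5-fold higher in both libraries.

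Of 8 measured osteoclast genes besides Atp6v0d2, Acp5, tartrate-resistant acid phosphatase, was higher, with 44.8 and 18.4 CPM in SPP1 (1.28) and 52.9 and 21.3 in Vector (1.31), but 1 Vector member held 18 of its 36 UMIs there, and without the 3 highest cells of each set its Vector value was 0.14. Dcstamp, which osteoclast precursors need to fuse, was lower, with 1.87 CPM in members and 101 in other gated cells of SPP1 (1 UMI in members, ratio -5.76, interval -11.07 to -3.28) and 36.8 and 129.8 in Vector (-1.82, -2.46 to -1.25). The medians were -0.13 in SPP1 and 0.35 in Vector, and over other choices the SPP1 median lay between -0.35 and 0.70. The osteoclast genes Calcr, Oscar, Tm4sf19 and Siglec15 had 0 UMIs in all members.

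One Vector member was unlike the rest. It held 100 UMIs of the gelatinase Mmp9, all of those in Vector members, 77 of 90 UMIs of Ctsk (85.6%), the collagen-cutting cathepsin of osteoclasts, 18 of 36 of Acp5 and 35 of 77 of the osteoclast transcription factor Nfatc1. It also held 30 UMIs of Atp6v0d2, but 0 of Mmp13, Gpnmb, Hmox1, Ctsl and Lyz2. It had 16571 UMIs and was the 1 member predicted to be a doublet. In SPP1 members Mmp9 had 0 UMIs and Ctsk 7. Leaving out this cell and the SPP1 member with the most Mmp13 left 126 of the 140 higher genes.

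Of 18 measured genes of lipid handling, 9 were higher in members and none lower, with medians of 1.06 in SPP1 and 0.78 in Vector. Besides Fabp5, Gpnmb and Lipa, these were Plin2, Cd36, Lpl, Lgals3, Abcg1 and Spp1. Plin2, the coat protein of lipid droplets, had 720.2 CPM in members and 346 in other gated cells of SPP1 (1.06), and 584 and 281 in Vector (1.05). Lgals3, galectin 3, had 2670.0 and 1281 in SPP1 (1.06) and 2715 and 1446 in Vector (0.91). Cd36, a scavenger receptor for oxidised lipid, had 215 and 55.5 in SPP1 (1.95) and 213 and 121 in Vector (0.82). Without the 3 highest cells of each set 6 of the 9 stayed 1.5-fold higher in both libraries, while Cd36 was at 0.42 in Vector, Lpl at 0.47 in SPP1 and 0.34 in Vector and Spp1 at 0.41 in Vector. Abca1, a cholesterol exporter, had 0.44 in SPP1 and 1.01 in Vector and was not called.

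Iron and haem genes were higher for 4 of 13 measured, with medians of 0.52 in SPP1 and 0.51 in Vector. Besides Hmox1 these were the ferritin chains and Slc11a1, which moves iron out of phagosomes. Fth1, ferritin heavy chain, had 20311 CPM in members and 11274 in other gated cells of SPP1 (0.85), and 21702 and 12059 in Vector (0.85), and Ftl1, the light chain, had ratios of 0.76 and 0.82. Slc11a1 had 119 and 64.2 CPM in SPP1 (0.89) and 122 and 67.8 in Vector (0.85). All 4 stayed 1.5-fold higher in both libraries without the 3 highest cells of each set. Of 10 measured targets of the oxidative stress factor NRF2, Hmox1 alone was called, beside 2.32% of all measured genes called higher.

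Genes of hypoxia and glycolysis were higher for 4 of 18, with medians of 0.48 and 0.45: Bnip3, a mitophagy receptor, at 0.94 in SPP1 and 0.70 in Vector, Egln3, an oxygen-sensing hydroxylase, at 1.14 and 0.91, Ero1a at 0.68 and 0.83 and Ankrd37 at 0.67 and 0.90. In SPP1, Ero1a was at 0.35 and Ankrd37 at 0.28 without the 3 highest cells of each set. Of 10 measured FoxO targets besides Fbxo32, which is itself a FoxO target in muscle, Bnip3 alone was called, and the medians were 0.04 and 0.03. Over all measured genes 2.32% were higher. Growth factor genes besides Igf1 were mixed, with 3 of 15 higher and 2 lower. Pdgfc, a platelet-derived growth factor, had 112 and 55.9 CPM in SPP1 (1.00) and 95.6 and 53.7 in Vector (0.83), and of the 3 it alone stayed 1.5-fold higher in both libraries without the 3 highest cells. Areg, an ErbB ligand, had 13.1 and 63.3 in SPP1 (-2.28) and 19.1 and 60.2 in Vector (-1.65). Tgfbi, a matrix protein, had 534 and 1092 in SPP1 (-1.03) and 579 and 1412 in Vector (-1.28). Arg1, arginase, had 2649 and 1507 CPM in SPP1 (0.81) and 2152 and 1418 in Vector (0.60), where its value without the 3 highest cells was 0.34, and besides Chil3 it was the 1 other gene called of 9 in the arginine and alternative activation list.

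Interleukin 1 genes went apart. Il1a had 549 CPM in members and 219.6 in other gated cells of SPP1 (1.32, interval 1.13 to 1.51) and 374 and 191 in Vector (0.97, 0.77 to 1.17), where its value without the 3 highest cells was 0.51. Il1b had 586 and 1041 in SPP1 (-0.83, -0.999 to -0.66) and 729 and 1631 in Vector (-1.16, -1.29 to -1.03). The other 12 genes of the inflammatory list were not called. Of 15 chemokines measured, Ccl6 and Pf4 were higher. Ccl6 had 4681 and 931 CPM in SPP1 (2.33) and 2093 and 1205 in Vector (0.80), where 3 members held 46.1% of its UMIs and its value without the 3 highest cells was 0.14. Pf4, platelet factor 4, which macrophages also make, had 2353 and 1448 in SPP1 (0.70) and 1499 and 929 in Vector (0.69), with a value of 0.41 in SPP1 without the 3 highest cells. Of 13 resident-type macrophage genes, Pf4 alone was called, beside 2.32% of all measured genes called higher.

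Spp1 itself had 5304 CPM in members and 2324 in other gated cells of SPP1 (1.19, interval 1.13 to 1.25), and 3422 and 2101 in Vector (0.70, 0.64 to 0.77). Without the 3 highest cells of each set its Vector value was 0.41. Without cells with at least 3 cell cycle UMIs its SPP1 value was 0.33, and both are under 1.5-fold. Whether RNA of the introduced SPP1 was counted under this gene is not given in the sources used here. None of its 7 measured receptor genes was called, and Cd44 had 1748 and 1592 CPM in SPP1 (0.13) and 1621 and 1731 in Vector (-0.10). At 2.32% higher and 5.29% lower over all measured genes, so short a list would hold few calls.

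On the lower side 33 genes passed the same rule, and the 12 with the largest smaller ratio were Ccl17, Plac8, Ccr2, Cdca3, Nusap1, Dcstamp, Lbr, Cenpe, Top2a, Cenpf, Ccna2 and Ccnb2. Ccr2, the receptor that draws monocytes from blood, had 39.2 CPM in members and 445 in other gated cells of SPP1 (-3.51, interval -4.20 to -2.89) and 125 and 679 in Vector (-2.44, -2.77 to -2.13). Plac8, a monocyte gene, had 0 UMIs in members of both libraries, against 55.5 CPM in other gated cells of SPP1 and 62.0 in Vector. With 3 UMIs set in place of 0 its log2 ratio was -3.31 in SPP1 and -3.81 in Vector, with upper limits of -3.00 and -3.51. It was detected in 5.95% of other gated cells in SPP1 and 7.69% in Vector. At equal depth, 2000 UMIs, these shares were 4.28% and 4.53%, against 0% of members, with upper limits of 6.06% and 4.40%. Ccl17, a chemokine of dendritic cells and some macrophages, had 0 and 57.1 CPM in SPP1 and 4.41 and 121 in Vector. It was detected in 2.97% of other gated cells in SPP1 and 6.32% in Vector, where the 3 highest cells held 50.8% and 35.4% of its UMIs.

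Class II presentation genes were lower for 5 of 9 measured and higher for none, with medians of -0.63 in both libraries. Ciita, the factor that switches these genes on, had 7.46 CPM in members and 31.3 in other gated cells of SPP1 (-2.07) and 20.6 and 51.0 in Vector (-1.31). H2-Ab1 had 1006 and 1568 in SPP1 (-0.64) and 1741 and 2728 in Vector (-0.65), and H2-Eb1 1106 and 1819.5 in SPP1 (-0.72) and 2146 and 3347 in Vector (-0.64). H2-DMa and H2-DMb1, which load peptide, were the others called. H2-Ab1 was detected in 79.7% of members and 64.9% of other gated cells in SPP1 and in 90.2% and 87.0% in Vector. At equal depth, 2000 UMIs, the shares were 55.9% and 52.4% in SPP1 and 72.0% and 78.7% in Vector.

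Cell cycle genes were lower for 12 of 16 and higher for none, with medians of -1.13 in SPP1 and -1.51 in Vector. Top2a, a topoisomerase of dividing cells, had 59.7 CPM in members and 199 in other gated cells of SPP1 (-1.74) and 39.7 and 166 in Vector (-2.07), and Mki67 had 72.8 and 155 in SPP1 (-1.09) and 58.8 and 129.8 in Vector (-1.14). In cells thinned to 2000 UMIs, at least 3 UMIs of the list were found in 16.9% of members (interval 8.44 to 29.0%) and 28.1% of other gated cells (24.3 to 32.1%) in SPP1, and in 6.10% (2.01 to 13.7%) and 22.9% (19.9 to 26.2%) in Vector. The tumour marker list was also lower in members, at 526 CPM against 643 in SPP1 and 443 against 560.0 in Vector, and its part in the cell cycle values was not tested. Leaving out the cells with at least 3 UMIs of the list at full depth removes cycling cells by its construction, and with them cells that pass by depth. At full depth 57.1% of other gated cells in SPP1 and 56.2% in Vector met this limit, against the 28.1% and 22.9% after thinning. Without these cells Top2a stood at 0.86 in SPP1.

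**Figure D4:**
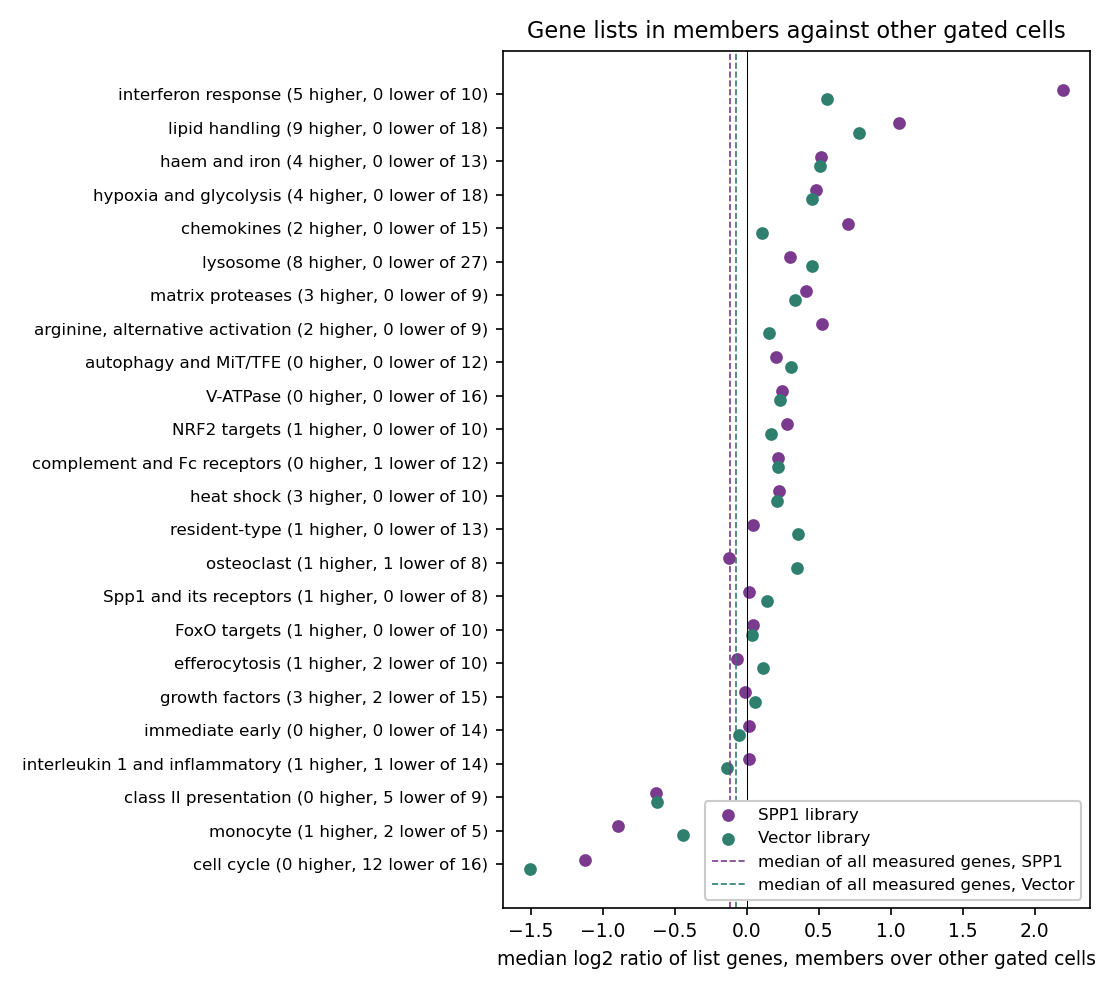
Median log2 ratio of the measured genes of each list, members over other gated cells, in the SPP1 and Vector libraries; dashed lines mark the medians of all measured genes and labels give the genes called. Lipid handling lies at 1.06 in SPP1 and 0.78 in Vector, cell cycle at -1.13 and -1.51, and the interferon list differs most between libraries, at 2.20 and 0.55.

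Markers of other cell types were low in members. The neutrophil list summed to 33.6 CPM in members and 18.0 in other gated cells of SPP1, and to 29.4 and 16.5 in Vector. The T cell list, of which Cd3d, Cd3e and Cd3g had 0 UMIs in members, summed to 11.2 and 5.29 in SPP1 and to 10.3 and 6.17 in Vector. Both of these low sums were thus higher in members in both libraries, and their part in the results was not tested. The dendritic cell list was lower, at 14.9 and 41.7 CPM in SPP1 and 16.2 and 53.8 in Vector, as was the fibroblast list, at 42.9 and 58.2 in SPP1 and 45.6 and 51.2 in Vector. The NK, B cell, endothelial and mural lists summed to at most 27.9 CPM in members, and the 5 mast cell genes had 0 UMIs in all. Ms4a1, Ly6g, S100a9, Xcr1, Ccr7 and Cldn5 had 0 UMIs in members. Most of the tumour list's sum was Col3a1, a collagen that fibroblasts also make, with 330 and 384 CPM in SPP1 and 241 and 324 in Vector. Of 10 measured heat shock genes 3 were higher, Hsph1, Hspa1a and Hspa1b, none of which stayed so in both libraries without the 3 highest cells. Of 14 immediate early genes none was called, and the part of tissue digestion in these values was not tested.

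Members led by different score genes differed in what else they held, as a description within 1 choice of cells. Mmp13-led members had the most Mmp12, 5928 CPM in SPP1 and 2352 in Vector, against 322 to 1186 in members led by the other genes, 365 in other gated cells of SPP1 and 584 in those of Vector. They also had the most Inhba, the activin A subunit, with 209.6 CPM in SPP1 and 281 in Vector, against 45.6 and 59.3 in other gated cells. Igf1-led members had little of this pattern. They had Fcrls, a resident-type receptor, at 521 CPM in SPP1 and 185 in Vector, against 238 and 86.2 in other gated cells, Selenop at 1438 and 1426, against 786 and 541, and Mrc1 at 1752 and 1673, against 1066 and 951, though Mrc1 is a gate gene. Selenop was not raised in Igf1-led members alone. In Atp6v0d2-led members it had 989 CPM in SPP1 (interval 667 to 1411) and 1125 in Vector (944 to 1330). Mmp13-led members had 404 CPM of it in SPP1 and 710 in Vector, and Fbxo32-led members 613 and 572. Inhba in Igf1-led members was 33.1 CPM in SPP1 and 11.2 in Vector.

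Fbxo32-led members kept the most Ccr2, 121 CPM in SPP1 and 456 in Vector, against 0 to 75.6 in members led by the other genes, and the least Fcrls, 46.4 and 8.29 CPM. Atp6v0d2-led members had Ctsl at 1714 CPM in SPP1, from 3 cells, and 1724 in Vector, from 14 cells, and Gpnmb at 461 and 378. Gpnmb was above the other gated cells (19.6 and 24.5 CPM) in members led by each gene, and its interval lay above them with 1 exception. The exception was Igf1-led SPP1 members, whose 41.3 CPM rested on 5 UMIs (interval 13.4 to 96.4). In Mmp13-led SPP1 members Gpnmb reached 535 CPM. Ctsb was likewise higher in each, from 3763 to 6723 CPM, against 2829 in other gated cells of SPP1 and 2444 in those of Vector.

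**Figure D5:**
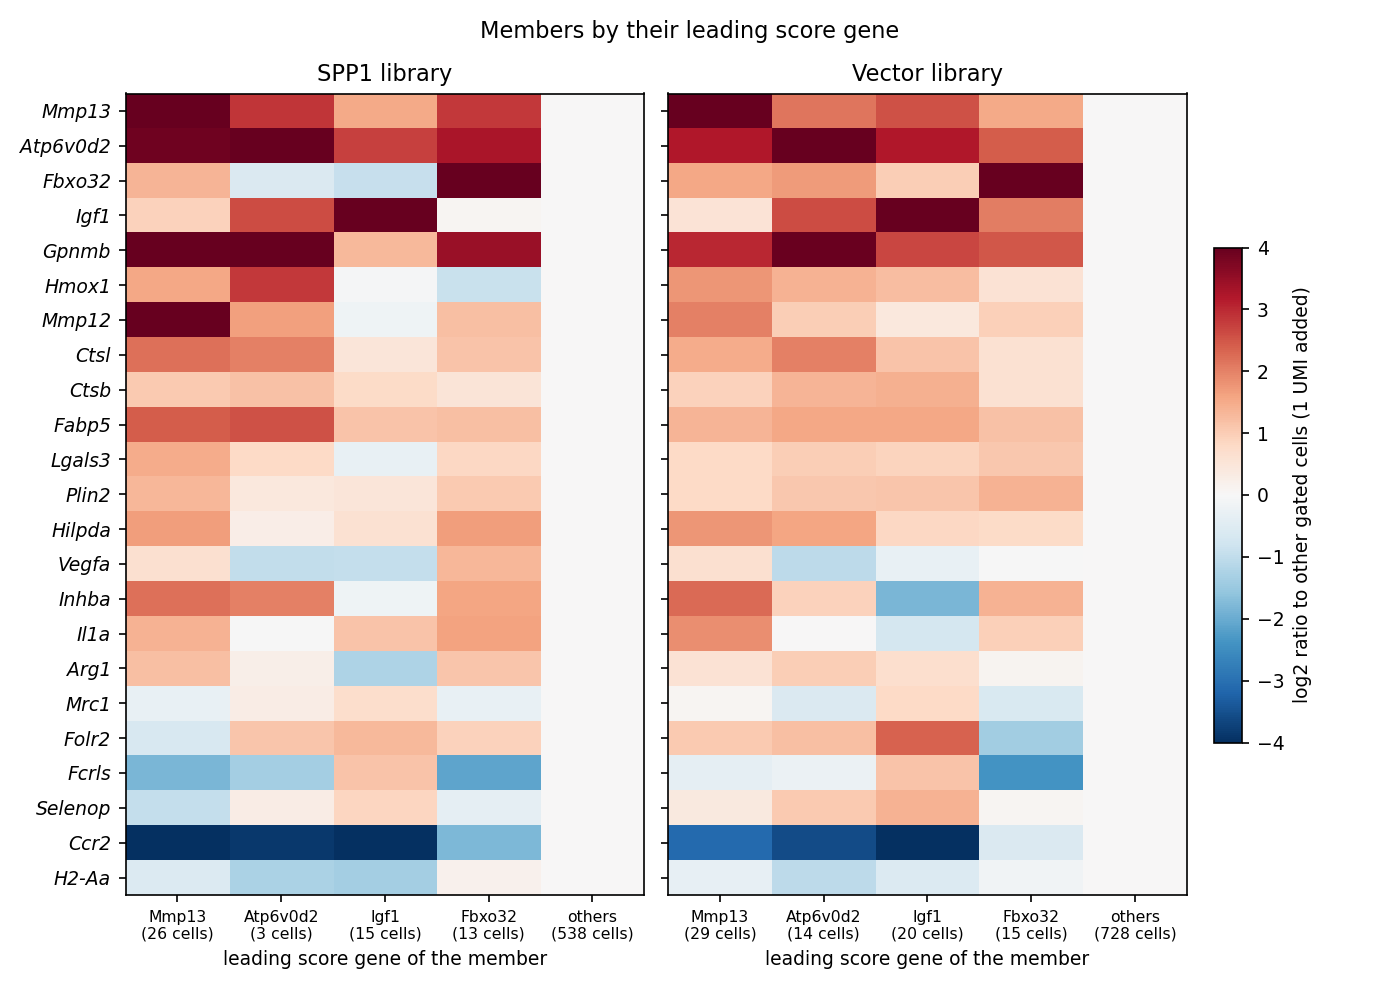
Log2 ratio to other gated cells (colour, 1 UMI added to each sum, limited to 4 either way) of 23 genes in members grouped by their leading score gene, in each library. Mmp12 and Inhba are darkest in Mmp13-led members, Fcrls is above the other gated cells only in the Igf1-led column, and Ccr2 is palest in the Fbxo32-led column.

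Sets of 141 gated cells were rebuilt here as the top 10% by Spp1, by Il1b, Olr1 and Thbs1, by Fcrls and Folr2, by Cxcl9 and class II genes and by the cell cycle list. They shared 25 (17.7%), 6 (4.26%), 13 (9.22%), 5 (3.55%) and 2 (1.42%) cells with the members, each a share of both sets, where 10% is the share of gated cells in each set. Of the 13 shared with the Fcrls and Folr2 set, 11 were in SPP1, 18.6% of its members, and 2 in Vector, 2.44% of its members. That set was taken from both libraries pooled, and its share of gated cells in each library is not given here. Other gated cells also held more Fcrls in SPP1 than in Vector, 238 against 86.2 CPM, and more Folr2, 86.5 against 42.2 CPM. The part of this in the shared cells was not tested.

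Between libraries, 2262 genes had at least 100 UMIs in members, of which 111 (4.91%) were at least 1.5-fold higher and 119 (5.26%) at least 1.5-fold lower in SPP1 members than in Vector members, with a median log2 ratio of -0.05. With the score taken on a random 50% of UMIs and levels read in the rest, 54 were higher and 61 lower. Of the genes beyond 1.5-fold with their interval, 31 were higher, and the 8 largest were Cmpk2, Isg15, Ccl5, Ifit3, Fabp4, Ifit2, Ifih1 and Acod1. Of these, 5 are known interferon-induced genes, Cmpk2, Isg15, Ifit3, Ifit2 and Ifih1. Isg15, a ubiquitin-like modifier, had 198 CPM in SPP1 members and 19.1 in Vector members (log2 ratio 3.37, interval 2.54 to 4.33), against 0.12 between the other gated cells. Ccl5, a chemokine that attracts T cells, had 1418 and 149 CPM (3.25, 2.95 to 3.57), against -1.001 in other gated cells, and Acod1, which makes itaconate, had 142 and 35.3 CPM (2.01).

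These differences rested on a part of the members. Isg15 was detected in 32.2% of SPP1 members and 12.2% of Vector members, and Ccl5 in 30.5% and 13.4%, with 63.6% and 83.2% of its UMIs in 3 cells. The SPP1 member with the highest score, 231 per 10000, held 295 of 809 Mmp13 UMIs in SPP1 members (36.5%) and also 101 of 172 of Cmpk2 (58.7%), 131 of 276 of Rsad2 (47.5%) and 65 of 116 of Ifit2 (56.0%). It held no UMI of Ccl5. The difference between SPP1 and Vector members was still there without the 3 highest members of each library. The log2 ratio was then 3.25 for Isg15, 4.39 for Ccl5, 2.74 for Cmpk2 and 2.32 for Ifit3. For Acod1 it was 2.03, for Ifih1 1.86, for Fabp4 1.39 and for Ifit2 1.22. Of 10 measured interferon genes, 5 were higher in members of both libraries, with medians of 2.20 in SPP1 and 0.55 in Vector. None of the 5 stayed 1.5-fold higher in both libraries without the 3 highest cells of each set, and in Vector Cmpk2 was then at -0.47, Ifit2 at -0.0833, Rsad2 at 0.23 and Ifit1 at -0.23. Over other choices of cells and settings the list median lay between 0.09 and 3.24 in SPP1 and between -0.09 and 0.63 in Vector.

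In the other direction 16 genes passed, and the 8 largest were Mmp9, Micu3, Map3k5, Ccr2, Cytip, Togaram1, Plxdc2 and Fgl2. Mmp9 came from the 1 Vector member described above, and 3 cells held 92.3% of Micu3 in Vector members. Fgl2, a fibrinogen-like protein of macrophages, had 164 CPM in SPP1 members and 424 in Vector members (-1.37, interval -1.73 to -1.02), against -0.36 in other gated cells, and was detected in 40.7% and 73.2% of members. Ccr2 had 39.2 CPM in SPP1 members and 125 in Vector members (-1.67), against -0.61 in other gated cells. Cytip, an adaptor of leukocyte adhesion, had 112 and 353 CPM (-1.66) and was detected in 35.6% and 59.8% of members. Of the class II genes, H2-Eb1 had 1106 CPM in SPP1 members and 2146 in Vector members (-0.96), against -0.88 in other gated cells.

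The score genes chose the members in both libraries together, so their levels in SPP1 and Vector members are shaped by that choice and are given as a description. Atp6v0d2 was lower in SPP1 members than in Vector members (-0.94, interval -1.30 to -0.58), and other gated cells had -0.72. Mmp13 was higher (0.91, 0.75 to 1.06), against -0.65 in other gated cells, but without the 3 highest members of each library its value was 0.25. Gpnmb was higher (0.77, 0.44 to 1.09), against -0.32 in other gated cells, Hmox1 lower (-0.49, -0.78 to -0.21), against -0.26, and Igf1 stood at -0.03 (-0.28 to 0.23). Mmp12 had 3265 CPM in SPP1 members and 1441 in Vector members (1.18). With 1 library a group, a difference between SPP1 and Vector members cannot be told apart from one between mice, tumours or library preparations.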

How the data were processed

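The authors deposited raw UMI counts per gene and barcode for each library, not normalized, as the whole numbers in the matrices show. Per the submitters' processing notes, the tool was Cell Ranger 2.1.1 and the build GRCm39. The method of cell calling is not given in the sources used here, nor is a step against free RNA or doublets. The members, gene lists and rules were chosen with earlier results of these data known. UMIs were summed over cells of a set and library and given per 1000000 (CPM). Ratios have exact conditional binomial intervals, levels exact Poisson intervals and shares exact binomial intervals, all at 95%. A 0 was replaced by 3 UMIs in a ratio. A gene was measured at 100 UMIs or more in gated cells of each library and called at 1.5-fold in both. Score, gate and exclusion genes were left out of every count. The named genes were the 15 higher and 12 lower genes, and 8 each way between libraries, at 50 CPM or more in the higher set and with an interval beyond 1.5-fold, ranked by the smaller ratio, leaving out Y-linked, Xist, Tsix, ribosomal, mitochondrial, receptor-segment, haemoglobin and clone-named genes, plus the score genes, the markers, Spp1, Cd44, the called list genes and the list genes with the most UMIs, of which the text gives some. A re-implementation of Scrublet's approach, run on each library, marked 353 of 14029 barcodes in SPP1 and 276 of 14317 in Vector as doublets, which were kept, with removal as an alternative. The ratio, interval and call were tested on simulated data. These were Poisson sums per gene and set without variation between cells, so they do not cover genes whose UMIs come from a few cells. Python 3.11.15, numpy 2.4.6, scipy 1.17.1 and pandas 2.3.3 were used. Promoter windows are from RefSeq on GRCm38.p6 and were not joined to coordinates of the files.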

Additional observations from a re-analysis of the deposited data

Results flagged for a closer look

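Some values had opposite signs in the libraries, with intervals that excluded 0 in both; the difference between libraries was not tested in any of them. Fbxo32, in cells chosen by the other 3 score genes over the rest, had a log2 ratio of -0.85 in the SPP1 library and 0.60 in the Vector library. Acod1 stood at 0.98 in SPP1 members over other gated cells and at -1.23 in Vector members over other gated cells, and Ifih1 at 0.59 and -0.88. In SPP1, 3 members held 48.4% of the members' Ifih1 UMIs. Without the 3 highest cells of each set Ifih1 was at 0.10 in SPP1 and -1.26 in Vector, and Acod1 at 0.53 and -1.85. Togaram1 stood at -1.03 in SPP1 and 0.57 in Vector, and Fgl2 at -0.55 and 0.46. Cd44 stood at 0.13 in SPP1 and -0.10 in Vector, both under 1.5-fold.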

How the results depend on the processing

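No paired analysis was possible because each group is 1 library and no test across samples was made. The share ratio stayed within its interval in all 12 alternatives, from -0.36 to 0.01. Of the named genes' values, 30 whose interval excluded 0 changed sign, and of 892 list medians 58 changed sign, none of which had been at 1.5-fold (0.55 at most); the cause was not tested. Against 140 genes higher and 319 lower in members and 111 and 119 in SPP1 over Vector members, these counts moved by over 1.5 times. The top 5% gave 504 lower and 69 higher in SPP1 members, and the top 20% gave 180 lower in SPP1 members. A score on a random 50% of the UMIs, read in the rest, gave 54 and 61 between libraries. With tumour genes at 0 UMIs, 76 were higher and 184 lower in members. Without cells with at least 3 cell cycle UMIs the 4 counts were 59, 101, 67 and 51, with fewer genes measured. A filter of 20 UMIs gave 314, 747, 714 and 854, and no filter, where the 3 UMIs set for 0 make calls, gave 5124, 820, 3736 and 3312. These genes changed sign, members over other gated cells. With the top 5%, Ankrd33b was at -1.56 and Cd44 at -0.0319 in SPP1, and with the top 20% Cd44 was at 0.0402 in Vector. With Mmp13 out of the score, Chil3 was at -0.27 in SPP1 and -4.05 in Vector, Ifit1 at -0.76 and Cd44 at 0.15 in Vector. With Fbxo32 out, Fbxo32 was at -0.85 in SPP1, and with Igf1 out, Ankrd33b was at -0.23 in SPP1 and Cd44 at 0.14 in Vector. With tumour genes at 0, Chil3 was at -2.55 and Ccnb2 at 0.0397 in Vector, and Il18bp at -0.79 in SPP1. Without cells with at least 3 cell cycle UMIs, Chil3 was at -2.04 and Nusap1 at 0.64 in Vector, and Top2a at 0.86 in SPP1. In that setting Cdca3 was at 0.0111 and 0.85, Cenpe at 1.77 and 0.74 and Cenpf at 0.37 and 1.38 in SPP1 and in Vector. Ccna2 was at 1.959 and 0.0564 and Ccnb2 at 2.18 and 1.16, in the same order. Added after the data were seen, leaving out the 3 highest cells of each set takes a larger share from members by its construction; it gave Chil3 -0.45 in SPP1 and -1.77 in Vector, Ifit1 -0.23 in Vector and Cd44 -0.0172 in SPP1. Depth limits genes under about 50 CPM, where members hold few UMIs.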

Other observations

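Lists not described above showed few genes beyond 1.5-fold in both libraries, beside 2.32% of all measured genes higher and 5.29% lower. Of 10 measured genes for the uptake of dead cells, Cd36 was higher in members than in other gated cells. Axl, a receptor for dying cells, and Pros1, a bridging ligand in such uptake, were lower. Axl had 131 CPM in members and 198 in other gated cells of SPP1, and 118 and 237 in Vector. Of 5 measured monocyte genes, Ccr2 and Plac8 were lower and Chil3 higher. Without the 3 highest cells of each set neither Cd36 nor Chil3 stayed 1.5-fold higher in both libraries.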
